A study of Danio rerio with 4 samples.

Results

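Mural cells are the pericytes and vascular smooth muscle cells that wrap vessels, and here they were taken as cell barcodes rich in 5 transcripts: rgs5b, kcne4, ndufa4l2a, pdgfrb and notch3. A barcode was a member if it had at least 200 detected genes, at most 25% mitochondrial UMIs (unique molecular identifiers, each counting 1 captured transcript), under 3% of its UMIs from the cardiomyocyte light chain gene myl7, at least 5 UMIs over the 5 markers, and more marker UMIs than UMIs of the collagen I genes col1a1a, col1a1b and col1a2. Of 11795 deposited barcodes 5471 passed the gene and mitochondrial filters, 2237 of these were under the myl7 limit, and 295 were members. They are called mural-marker barcodes below. Since members were chosen by their own UMIs of the markers, collagen I and myl7, these levels and every difference from other barcodes are given as descriptions.

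The libraries came from dissociated zebrafish ventricles of the AB strain, digested with collagenase and elastase. Cells were sorted for EGFP driven by pdgfrb regulatory DNA, so that every library had already passed a sort for the reporter. Barcodes at or above the myl7 limit, called cardiomyocyte barcodes, still numbered 672 of 949 kept ones in wildtype and 891 of 1119 in mutant. They numbered 1049 of 2010 in uninjured and 622 of 1393 in injured. Each group was 1 library, of an unstated number of fish. The wildtype fish were 6 months old and carried Tg(pdgfrb:EGFP; cxcl12b:Citrine; fli1a:DsRed), and the mutant fish had the same age and transgenes and were pdgfrb-/- with the um148 allele. The uninjured and the injured fish were 18 months old and carried Tg(pdgfrb:EGFP; cxcl12b:Citrine), without fli1a:DsRed, and the injured ventricles had lost their apex by amputation 7 days before collection. Kept barcodes summed to 1990550 UMIs in wildtype, 2772269 in mutant, 7982726 in uninjured and 6696081 in injured, of which members held 119374, 54553, 776966 and 405497. No difference between libraries has a replicate check, so no p-value is given. All intervals are at 95% and cover counting error only.

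Pericytes sit in the basement membrane of capillaries and are recruited by PDGF-B from endothelium through the receptor encoded by pdgfrb, while arterial smooth muscle adds a contractile apparatus of smooth muscle actin, myosin and calponin. Notch3 is the Notch receptor of mural cells, and RGS proteins such as those of rgs5a and rgs5b end signalling by vasoactive G-protein-coupled receptors. In the zebrafish heart, mural cells cover the coronary vessels, and pdgfrb is also transcribed by epicardial cells and fibroblasts.

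Mural-marker barcodes were most frequent in the wildtype library, where they were 94 of 949 kept barcodes, or 9.91% (Clopper-Pearson interval 8.08 to 12%). The uninjured library held 121 of 2010 (6.02%, 5.02 to 7.15%), the injured library 66 of 1393 (4.74%, 3.68 to 5.99%) and the mutant library 14 of 1119 (1.25%, 0.686 to 2.09%). Of the barcodes under the myl7 limit they were 33.9% in wildtype, 6.14% in mutant, 12.6% in uninjured and 8.56% in injured. These shares depend on the sort and on depth. Thinned to 500 UMIs per barcode, with at least 2 marker UMIs asked, they were 10.3%, 1.07%, 3.68% and 3.88% in the order wildtype, mutant, uninjured, injured, against 10.2%, 1.61%, 8.86% and 6.17% for the same minimum at full depth. No barcode was too shallow for the thinning. Because pdgfrb is both a marker and the mutated gene, members were also counted without it, which gave 94, 14, 117 and 65 barcodes. At the edge of the rule, barcodes with 4 marker UMIs just outside it numbered 2, 1, 11 and 6, and those with 5 just inside it numbered 1, 2, 13 and 4. A further 16, 6, 41 and 85 barcodes had enough marker UMIs but as many or more of collagen I. No cell barcode sequence was shared between members of different libraries, and 1 uninjured member had its barcode also among the kept barcodes of the injured library.

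Members of the wildtype library showed more of the 5 markers than those of the other libraries, and fewer of them carried markers of other cells. The 5 markers chose the members, so their number per barcode is no test of the label. In wildtype, 74 of 94 members had a UMI of at least 3 of the 5 markers, and 9 had all of them. In uninjured this was 22 of 121, in injured 23 of 66 and in mutant 2 of 14. In uninjured, 73 members showed a single marker, which was rgs5b in 64. The cutoff of 3 markers was chosen after the values were seen, and these 121 barcodes are called multi-marker barcodes. Depth moved the other way: median UMIs per member were 966 in wildtype, 3232.5 in mutant, 4977 in uninjured and 5275.5 in injured. Members that also carried at least 3 UMIs of endothelial, leukocyte or epicardial markers, or at least 3% erythrocyte UMIs, are called mixed, and numbered 6 of 94 in wildtype, 14 of 14 in mutant, 105 of 121 in uninjured and 51 of 66 in injured. Among multi-marker barcodes mixed ones numbered 0 of 74, 2 of 2, 8 of 22 and 9 of 23. Of the other barcodes under the myl7 limit 67.2%, 77.1%, 96.1% and 92.1% met the same definition, in the same order of libraries. Its minimum of 3 UMIs was not scaled to depth. No doublet caller was used. The results below therefore rest on the multi-marker barcodes, with their values after leaving out mixed barcodes where these differ. Where depth or mixed barcodes moved with a result, their part in it was not tested.

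**Figure D1:**
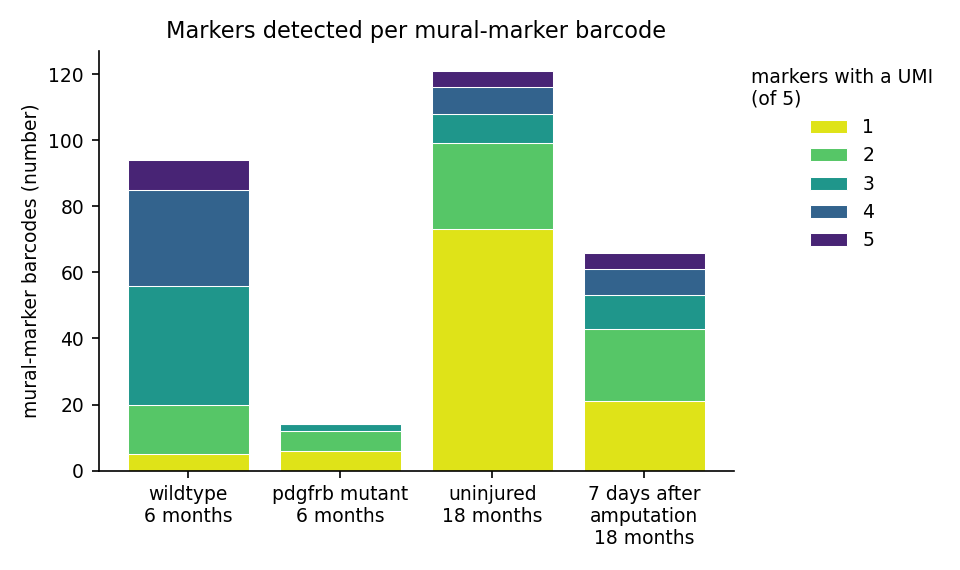
Number of mural-marker barcodes in each library (vertical axis), stacked by how many of the 5 markers had a UMI (colours). In wildtype 74 of 94 barcodes have 3 or more markers, and in uninjured 73 of 121 have a single one.

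Of the marker genes, rgs5b was present at comparable counts per barcode in the 3 larger sets of multi-marker barcodes. Median UMIs per barcode in wildtype, uninjured and injured were 6, 3 and 3 for kcne4 and 1, 2.5 and 2 for pdgfrb. rgs5b had a median of 19 UMIs per barcode in wildtype (highest 87), 18.5 in uninjured (highest 76) and 17 in injured (highest 151). Scaled to all UMIs of those barcodes (CPM, UMIs of the gene per 1000000 UMIs), it stood at 19730 in wildtype (Poisson interval 18792 to 20702), 7647 in uninjured (6974 to 8367) and 6619 in injured (6089 to 7183). The wildtype interval lay above the other two, which overlapped. Leaving out mixed barcodes left 14 each in uninjured and injured and all 74 in wildtype. Median depth was then 1393.5 UMIs in uninjured and 1223.5 in injured, against 2077 and 1689 with mixed barcodes. Without them rgs5b was at 14178 CPM in uninjured and 9818 in injured, so that it was highest in wildtype on either count. kcne4, an accessory subunit of voltage-gated potassium channels, was at 6996 CPM in wildtype (589 UMIs in 70 of 74 barcodes), 2646 in uninjured (164 in 18 of 22) and 1496 in injured (130 in 15 of 23). ndufa4l2a, whose mammalian counterpart is a hypoxia-induced mitochondrial protein, gave 70, 22 and 48 UMIs. pdgfrb was at 903, 1113 and 1036 CPM, with overlapping intervals, but without mixed barcodes at 2263 in uninjured and 2749 in injured. notch3 was at 1402, 613 and 553 CPM, and at 1247 and 1522 in the last pair without mixed barcodes. A library prepared from transcript ends gives about 1 tag per molecule, so CPM of different genes can be set side by side only as captured molecules.

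The reporter followed the markers. The rule did not use EGFP, but pdgfrb, whose regulatory DNA drives the reporter, is a marker of the rule, so the reporter is not independent of it. EGFP transcripts were found in 73 of 74 wildtype, 21 of 22 uninjured and 21 of 23 injured multi-marker barcodes, at 8172, 2743 and 3430 CPM. Without mixed barcodes EGFP was at 5911 CPM in uninjured and 9082 in injured, which put injured above wildtype. In the other barcodes under the myl7 limit, EGFP was at 559, 131 and 203 CPM. Cardiomyocyte barcodes, which should not carry the reporter, showed an EGFP UMI in 1.19%, 1.14% and 0.965%, at median depths of 1991, 2735 and 3077.5 UMIs against 975.5, 2077 and 1689 in the multi-marker barcodes. Members with 1 or 2 markers had EGFP in 85% of wildtype, 46.5% of uninjured and 62.8% of injured barcodes, where collagen I barcodes (at least 5 UMIs of the 3 collagen I genes and not members) had it in 60.8%, 62.9% and 77.6%. Citrine transcripts, from the cxcl12b reporter, came to 5, 0, 1 and 2 UMIs over all members of the wildtype, mutant, uninjured and injured libraries, and DsRedEx to 0 in each.

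Beyond the markers of the rule, multi-marker barcodes shared surface, transporter and receptor genes in all 3 libraries that held more than 20 of them. Of 788 genes measured, 79 (10%) were over 2-fold higher than in the other barcodes under the myl7 limit in each of wildtype, uninjured and injured with each interval excluding 1, and 17 (2.16%) were lower. Over all members 37 of 2104 genes were higher by this rule (1.76%) and 16 lower (0.76%). The same UMIs chose the barcodes, so nothing is read from these shares. A gene could also be measured through its UMIs in the members alone, which favours genes high there. Nothing is therefore read from the counts of list members higher than in other barcodes. The sodium pump alpha subunit gene atp1a1b ranked first, with 116 UMIs in the 74 wildtype multi-marker barcodes against 6 in 183 others, 10 against 5 in uninjured and 15 against 4 in injured, with log2 ratios of 6.26, 6.84 and 7.40. The beta subunit gene atp1b4 had ratios of 5.65, 9.84 and 9.20, the last pair against a single UMI in the others, while another, atp1b1a, was below the other barcodes at -1.12, -1.09 and -0.82. plp1b, which encodes a proteolipid best known from myelinating glia, had 64, 19 and 24 UMIs against 2, 1 and 1. Over the list of 11 glial and neural crest genes, plp1b included, the wildtype multi-marker barcodes held 72 UMIs. Of its other members, sox10, mpz and s100b had 0 UMIs in the multi-marker barcodes of each of these libraries. pcdh18a, a protocadherin gene, had log2 ratios of 5.12, 7.77 and 9.02, and slc20a1a, for a phosphate transporter, 5.29, 6.47 and 5.01.

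The other pericyte genes on the list split into those present and those near 0. rgs5a, the paralogue of rgs5b, was at 1936, 1016 and 1577 CPM in wildtype, uninjured and injured, with log2 ratios over the other barcodes of 5.16, 6.86 and 7.46. cd248a, the gene of the mural and stromal sialomucin endosialin, had ratios of 4.82, 6.47 and 6.38, and mcamb, which encodes the adhesion molecule CD146, 4.37, 2.52 and 2.83. By contrast the mammalian pericyte genes cspg4 (NG2), kcnj8 and abcc9 (the pore and the sulfonylurea receptor of the ATP-sensitive potassium channel) gave 0, 1 and 4 UMIs in wildtype, 3, 1 and 0 in uninjured and 0, 0 and 3 in injured. ebf2, an early B-cell factor gene on the same list, had 22 UMIs in 16 wildtype multi-marker barcodes and none in 183 others. Of 22 list genes found 4 had enough counts, and 3 of these were higher in every library. On the list of channels, pumps and surface genes 5 of 6 were, among them kcne4, a marker of the rule. The share over all genes measured was 10%, and nothing is read from these counts.

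**Figure D2:**
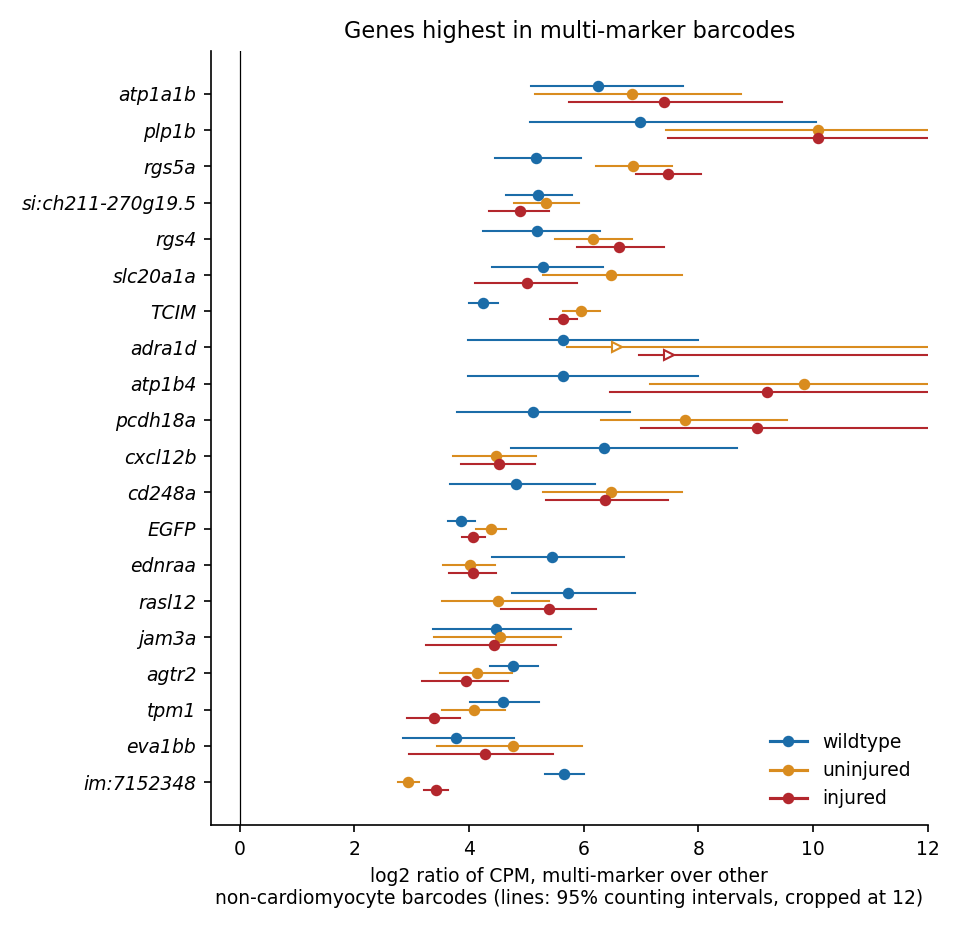
Log2 ratio of CPM between multi-marker barcodes and other barcodes under the myl7 limit (horizontal axis) for the 20 genes ranked highest by their smallest lower bound, in wildtype, uninjured and injured. Lines are counting intervals, cropped at 12, and open triangles are bounds against a floor of 3 UMIs; atp1a1b and plp1b stand at 6.26 or more in each library.

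Several genes of receptors that set vessel tone were also higher in multi-marker barcodes than in the others. ednraa, the endothelin A receptor gene, was detected in 47 of 74 wildtype, 16 of 22 uninjured and 15 of 23 injured multi-marker barcodes, at 1045, 871 and 794 CPM, and its log2 ratios over other barcodes were 5.44, 4.01 and 4.07. adra1d, the alpha-1D adrenergic receptor gene, had 38 UMIs against 3 in wildtype, and 5 and 12 UMIs against 0 in uninjured and injured, bounds of 6.58 and 7.50. agtr2, a gene of the angiotensin receptor family, had ratios of 4.77, 4.14 and 3.96. adora2aa, for an adenosine receptor, stood at 5.79, 2.05 and 1.87, and the signal regulator genes rgs4 and rasl12 at 5.18, 6.16 and 6.62 and at 5.73, 4.5 and 5.39. Of 36 genes of the vasoactive list 5 were measured, and 4 of these were higher in all 3 libraries. Over all genes measured the share was 10%, and nothing is read from this count.

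Contractile genes were present at low and uneven levels. The summed contractile list of 26 genes was at 7780 CPM in wildtype, 3323 in uninjured and 3879 in injured multi-marker barcodes, against 2311, 1492 and 2228 in the other barcodes. Without mixed barcodes it was at 4664 CPM in uninjured and 8836 in injured, which put injured above wildtype. Tropomyosin 1 (tpm1) was detected in 57 of 74, 15 of 22 and 15 of 23 barcodes and had log2 ratios of 4.59, 4.1 and 3.39. Smooth muscle myosin (myh11a) and the myosin light chain kinase gene mylka were also higher in every library. acta2, smooth muscle actin, was found in only 16 of 74 wildtype, 5 of 22 uninjured and 1 of 23 injured barcodes, with 93, 6 and 2 UMIs. Of 9 measured list members 3 were higher in all 3 libraries and none lower, where 10% and 2.16% of all genes were.

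Of 4 measured chemokine and vessel signal genes 2 were higher in all 3 libraries, where 10% of all genes were. cxcl12b, the chemokine gene whose reporter the fish carried, had 62 UMIs in 21 wildtype, 24 in 5 uninjured and 33 in 5 injured multi-marker barcodes, with log2 ratios over other barcodes of 6.35, 4.47 and 4.52. Of the 24 uninjured UMIs 12 lay in 1 barcode that also held 35 endothelial UMIs. Members with 1 or 2 markers are not among the other barcodes. In injured 6 of 43 of them had cxcl12b, 1 with 73 UMIs beside 42 endothelial ones, so the gene was not particular to multi-marker barcodes there. vegfaa, for the endothelial growth factor VEGF-A, had ratios of 2.09, 2.07 and 1.90. Of 8 measured basement membrane genes 1 was higher in every library, near the 10% of all genes, namely the collagen IV gene col4a2 with 1.14, 2.52 and 1.27. Of 16 measured fibrillar collagen and fibroblast genes none was higher and hapln1a was lower, where the rule had already kept collagen I low. Of the Notch list only notch3, itself a marker of the rule, was higher in all 3 libraries, and heyl had 0 UMIs in each.

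Leukocyte, epicardial and endothelial markers were near 0 in the wildtype multi-marker barcodes and not in the 18-month ones. Other lists were not near 0 in wildtype, with cardiomyocyte genes at 2221 CPM and fibrillar collagen and fibroblast genes at 2732. Leukocyte genes gave 0 UMIs over the 74 wildtype barcodes, 53 over 22 uninjured and 23 over 23 injured. In uninjured, 50 of the 53 lay in 2 barcodes, each with exactly 3 markers, and the other 20 barcodes held 3. Epicardial genes were at 285 CPM in wildtype, with 0 barcodes of 74 at 3 UMIs or more, but at 2968 CPM in uninjured and 3085 in injured, with 7 of 22 and 8 of 23 such barcodes. The sums of endothelial and endocardial genes were 178, 903 and 1048 CPM. The lowest genes against the other barcodes were si:ch211-5k11.8, at log2 ratios of -9.78, -6.57 and -7.66, and cd74a, the invariant chain gene of antigen presentation, at a bound of -3.58 and at -2.88 and -4.13.

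**Figure D3:**
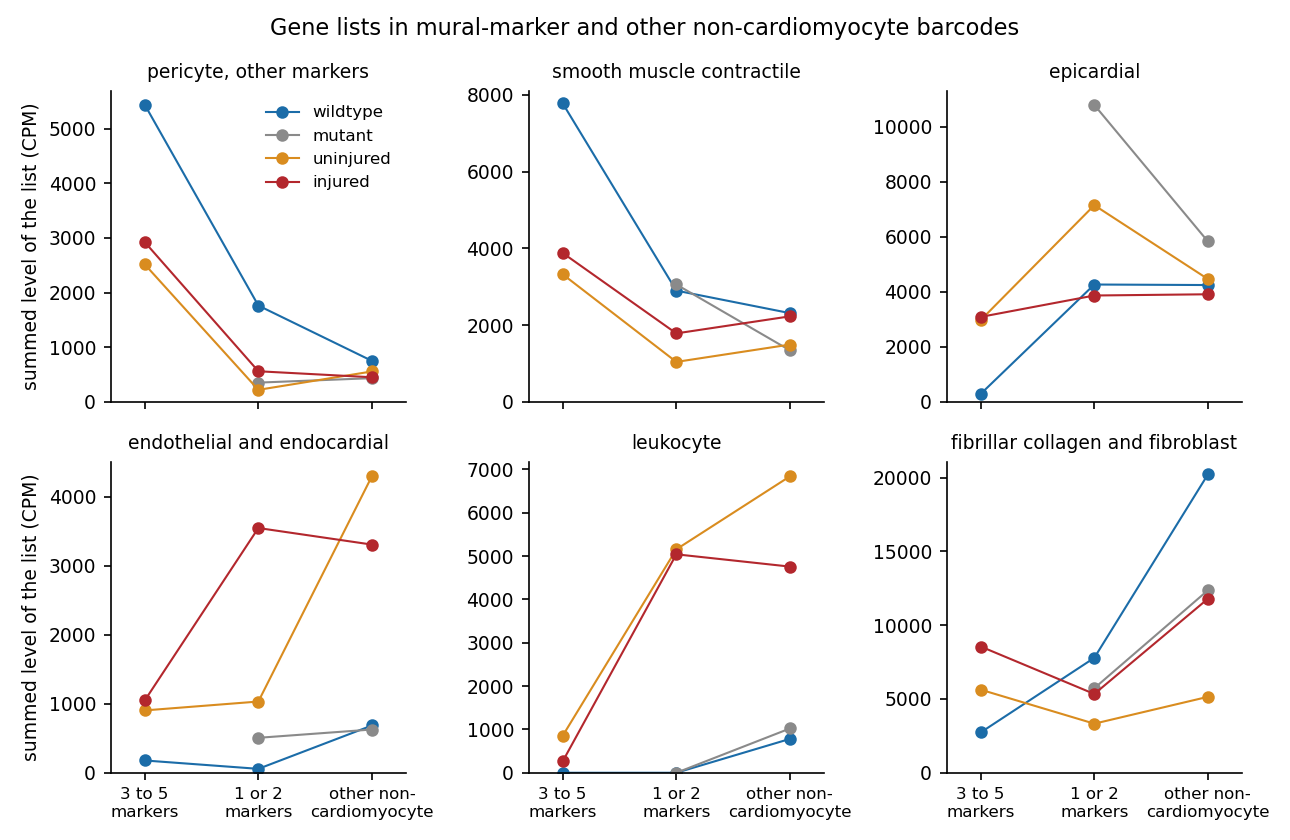
Summed CPM of 6 gene lists (vertical axes) in multi-marker barcodes (3 to 5 markers), members with 1 or 2 markers, and other barcodes under the myl7 limit, for each library; mutant multi-marker barcodes, 2 in number, are not drawn. Pericyte genes are at 5440 and 1762 CPM in the first 2 classes in wildtype and at 2517 and 218 in uninjured, and epicardial genes are at 7147 CPM in uninjured members with 1 or 2 markers.

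Members with 1 or 2 markers differed from the multi-marker barcodes, less so in wildtype, and are given no cell type name. There were 20 in wildtype, 12 in mutant, 99 in uninjured and 43 in injured, of which 6, 12, 97 and 42 were mixed. In wildtype their median EGFP and TCIM per 1000 UMIs were 7.22 and 6.27, against 7.66 and 7.42 in multi-marker barcodes. The median of rgs5a was 0 against 1.52. Over members with 1 or 2 markers rgs5b was at 19184 CPM in wildtype, 7150 in mutant, 3141 in uninjured and 3182 in injured. In the same order notch3 was at 56.8, 77.9, 15.4 and 22 CPM, against 81.2, 80.6, 26.5 and 36.2 in the other barcodes. The class was set by having few of the markers, so low notch3 follows from its definition and nothing is read from it. At 18 months at least 3 epicardial UMIs were found in 84 of 99 uninjured and 34 of 43 injured barcodes. Median depth was 5710 and 6494 UMIs, against 3770 and 4365 in other barcodes. The median log2 ratio of 9 epicardial genes over other barcodes was 0.51 and 0.06, and of 6 endothelial and endocardial genes -1.94 and 0.11. The class was not uniform: members with kcne4 as their only marker held 29 to 92 endothelial UMIs each in uninjured and 49 to 143 in injured. Leukocyte genes summed to 5155 and 5040 CPM in these uninjured and injured members, against 6840 and 4757 in other barcodes. The genes past 2-fold in all 3 libraries numbered 7 of 1696 (0.413%), against 15 lower (0.884%). They included rspo3, the Wnt agonist R-spondin 3, with 8, 125 and 49 UMIs and log2 ratios of 3.43, 1.59 and 1.77, and the cytokine receptor gene lifrb with 2.39, 1.58 and 1.61. rgs5b, kcne4, si:ch211-106h4.12, si:ch211-198c19.3 and wu:fj16a03 made up the rest. Other genes lay in single barcodes: all 466 UMIs of the coagulation factor XIII gene f13a1a.1 came from 1 uninjured member.

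Within the wildtype library the multi-marker barcodes fell along a range of contractile transcripts. Summing acta2, myh11a, tagln and cnn1b, 35 barcodes had 0 UMIs, 19 had 1 or 2 and 20 had 3 or more. With 5 barcodes at exactly 2 and 7 at exactly 3 the ends are a split of a range, chosen after the values were seen, and not cell types. Of 433 genes measured between the ends 41 were over 2-fold higher (9.47%) and 32 lower (7.39%) in the contractile end with intervals excluding 1. Median depth was 1383.5 UMIs in that end and 862 in the other, and mitochondrial genes were higher in 8 of 8, with a median log2 ratio of 1.84 and 1 barcode at 23.4% mitochondrial UMIs. The part of depth and mitochondrial share in the differences was not tested.

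Of 9 measured contractile list members 6 were higher in the contractile end and 0 lower, counting genes that define the split. Outside the split, tpm1 was higher at 95 against 43 UMIs (log2 ratio 1.5). So were myl9b, a regulatory light chain gene, at 36 against 17 (1.44) and myl9a at 19 against 8 (1.61). cxcl12b had 52 UMIs against 8, a log2 ratio of 3.06. Of all 74 wildtype multi-marker barcodes 11 held both acta2 and cxcl12b, 5 acta2 alone, 10 cxcl12b alone and 48 neither. phlda2 (42 against 8) and the interferon-induced membrane protein gene ifitm1 (58 against 19) were higher as well. ckba, a creatine kinase gene, had 35 UMIs in 6 barcodes against 0, a bound of 3.90.

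The end without contractile UMIs was higher in several genes that marked the members as a whole. agtr2 had 217 UMIs there against 70, a log2 ratio of -1.27, rgs5a 76 against 26 (-1.19), pdgfrb 31 against 9 (-1.42), plp1b 34 against 12 (-1.14) and ndufa4l2a 39 against 14 (-1.12). The retinol-binding protein gene rbp4 (332 against 93, -1.48), the lipase inhibitor gene angptl4 (66 against 18, -1.51), vegfaa (63 against 13, -1.92) and b2m, the MHC class I light chain gene (49 against 8, -2.25), also lay beyond 2-fold. rgs5b, kcne4, notch3 and EGFP did not pass the threshold in either direction.

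**Figure D4:**
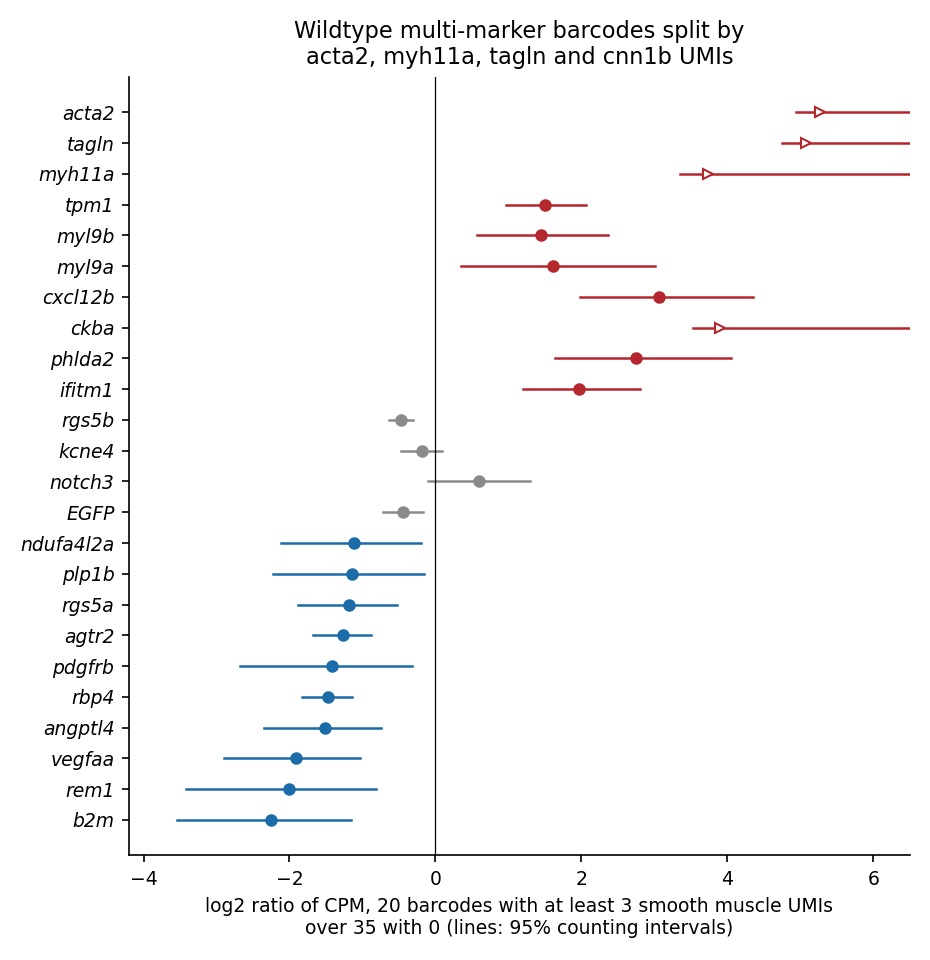
Log2 ratio of CPM (horizontal axis) between the 20 wildtype multi-marker barcodes with at least 3 UMIs of acta2, myh11a, tagln and cnn1b and the 35 with 0, with counting intervals. Red is higher and blue lower beyond 2-fold, grey is neither, triangles are bounds; acta2, tagln and myh11a define the split, cxcl12b stands at 3.06 and pdgfrb at -1.42.

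For injury, the 23 multi-marker barcodes of the injured library were set against the 22 of the uninjured library, both from 18-month fish. Of 771 genes with at least 20 UMIs, 76 were over 1.5-fold higher in injured with an interval excluding 1 (9.86%) and 73 lower (9.47%). The heat shock list was lower: 9 of 11 measured members were lower and none higher, with a median log2 ratio of -0.96, where all genes had a median of 0.03. Among the inducible HSP70 genes, hsp70.1 had 173 UMIs against 380 (-1.62), hsp70.2 475 against 980 (-1.53), hsp70l 240 against 511 (-1.58) and hsp70.3 766 against 1032 (-0.92). In the wildtype library hsp70.2 was at 12353 CPM, between the 5468 of injured and the 15810 of uninjured. Without mixed barcodes the whole heat shock list summed to 42156 CPM in wildtype, 50415 in injured and 119100 in uninjured. The uninjured library thus stood apart from the other libraries in this sum. Without mixed barcodes 7 of 9 were lower, with a median of -1.03 and hsp70.2 at -1.92, where of 310 genes measured 31 were higher (10%) and 29 lower (9.35%). In collagen I barcodes 6 of 17 list members were lower and 2 higher (median -0.23), where 16.4% of 7328 genes were higher and 6.15% lower. In cardiomyocyte barcodes 1 was lower and 5 higher of 17, where 12.8% of 4926 genes were higher and 4.67% lower. Of the early response genes, which tissue dissociation is known to induce, 3 of 26 were lower and none higher, with fosab and jun at 0.10 and -0.09. One of the 3 was the phosphatase gene dusp2 (19 against 60 UMIs, -2.15). After mixed barcodes were left out, early response genes past the threshold included cebpb (0.74) and gadd45ba (0.79), both higher. Those lower then included btg2 (-0.59), dusp2 (-1.60), ier5 (-1.39), mcl1a (-0.83) and nr4a1 (-1.94).

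Signs of other cells and of RNA quality differed between the same barcodes, and their part in the results was not tested. Cardiomyocyte genes were higher in 7 of 7 (median 2.25), with 373 of their 589 injured UMIs in 1 barcode, leukocyte genes lower in 2 of 2, and mitochondrial genes lower in 4 of 10 and higher in none. Without mixed barcodes the 2 measured cardiomyocyte genes were lower, myl7 with 6 against 35 UMIs. Mitochondrial genes were then higher in 3 of 9, mt-co1, mt-cyb and mt-atp6, and the median mitochondrial share was 5.11% in injured and 3.03% in uninjured.

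The calls of several mural genes between these libraries depended on whether mixed barcodes were counted. Of the genes given here, rgs5a was higher and id1 lower in injured on either count. rgs5b, pdgfrb and notch3 had log2 ratios of -0.21, -0.10 and -0.15, none past the threshold, and ednraa, rgs4 and vegfaa stood at -0.13, -0.33 and -0.12. Without mixed barcodes rgs5b was at -0.53, also not past the threshold. rgs5a was higher in injured at 137 UMIs in 17 barcodes against 63 in 13 (0.63), and at 0.76 without mixed barcodes. EGFP had 298 UMIs against 170, a ratio of 0.32 that reached 0.62 and passed the threshold without mixed barcodes. cxcl12b was level at 33 against 24 UMIs (-0.03), but without mixed barcodes it was higher at 33 in 5 barcodes, 21 of them in 1, against 10 in 3 (1.81). TCIM, which ranked seventh against the other barcodes, had 340 against 168 UMIs (0.53, not past the threshold) and without mixed barcodes 246 against 129 (1.02, higher). kcne4 was lower (-0.82), but at -0.22 and not past the threshold without mixed barcodes. The BMP target id1 was lower with 79 against 99 UMIs (-0.81, and -0.72 without mixed barcodes).

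The calls of tagln and of fibroblast genes depended on which barcodes were counted, while myl9b was higher in injured on either count. Over all multi-marker barcodes myl9b was higher at 49 against 18 UMIs (0.96) and tagln lower at 29 against 36 (-0.80), where 24 of the 36 came from 1 uninjured barcode. Without mixed barcodes, which left 14 in each library, tagln was higher at 21 against 9 UMIs (1.31), myl9b stood at 1.55, and 4 of 6 measured contractile genes were higher. Of 15 fibroblast genes 6 were higher over all multi-marker barcodes, among them dpt (dermatopontin, 1.11) and fn1b (fibronectin, 0.62, with 46 of 73 UMIs in 1 barcode), but 0 of the 2 measurable without mixed barcodes. The genes ranked highest in injured were mostly from few barcodes: 348 of 364 UMIs of si:ch211-106h4.12 and 51 of 59 of the chemokine gene cxcl8b.1 came from 1 barcode each, and adh8a and hamp (hepcidin) had their 48 and 40 UMIs in 5 and 4. zgc:152791 was the exception among them, with 73 UMIs in 12 of 23 injured and 0 in 22 uninjured multi-marker barcodes, a bound of 4.12. It was also higher in injured collagen I barcodes, at 1042 against 205 CPM, and in cardiomyocyte barcodes, at 136 against 24.1. Without mixed barcodes its bound was 1.31, which did not pass the threshold. The suppressor of cytokine signalling gene socs1a had 25 UMIs in 10 barcodes against 2 in 2 (3.16).

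Over all members of the 2 libraries, mixed ones included, 882 of 3998 genes were higher in injured (22.1%) and 224 lower (5.6%). The highest were the cardiac natriuretic peptide genes nppb and nppa, with 456 and 362 UMIs against 0, of which 236 and 358 came from 1 barcode each. The lowest, f13a1a.1, the chemokine genes cxcl11.1 and cxcl11.6, and zgc:153704, had nearly all their uninjured UMIs in 1 barcode each.

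Age, the fli1a:DsRed transgene and the library cannot be told apart between the wildtype library at 6 months and the uninjured library at 18 months, and the uninjured library also serves the injury comparison. Of 822 genes measured in multi-marker barcodes, 237 were higher in wildtype (28.8%) and 178 lower (21.7%), and the median of all genes was 0.34 (-0.10 with TMM scaling, which equalises the bulk of genes). Without mixed barcodes 92 of 672 were higher (13.7%) and 91 lower (13.5%). Over all members 856 of 3170 were higher (27%) and 420 lower (13.2%). Ribosomal protein genes were lower in 77 of 77 with a median log2 ratio of -1.62, and without mixed barcodes in 33 of 76 with -0.48. agtr2 was among the highest, with 380 UMIs in 65 of 74 wildtype barcodes against 29 in 12 of 22 uninjured ones (log2 ratio 3.27), and so was the sodium pump gene atp1a1b (116 against 10, 3.09). acta2 had 93 against 6 UMIs (3.51), and 7 of 9 contractile genes were higher. her6, a Notch-responsive transcriptional repressor gene of the Hes family, had 246 UMIs against 25 (2.86). Without mixed barcodes these ratios were 1.86, 1.58, 3.0 and 1.98 in the order agtr2, atp1a1b, acta2 and her6, each still past the threshold. In collagen I barcodes her6 was at 195 and 174 CPM in wildtype and uninjured, and atp1a1b had 1 UMI in each.

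Of the genes below, fkbp5 and pdk2b were higher in wildtype in other barcodes too. fkbp5, the gene of a co-chaperone of the glucocorticoid receptor, had 130 UMIs against 8 in multi-marker barcodes (3.58), and was at 784 against 195 CPM in collagen I barcodes and 365 against 60.0 in cardiomyocyte barcodes. The repressor gene nfil3-6 had 48 UMIs against 0 and the pyruvate dehydrogenase kinase gene pdk2b 34 against 0, bounds of 3.56 and 3.06, and pdk2b was at 779 against 42.7 CPM in collagen I and 422 against 24.4 in cardiomyocyte barcodes. hmox1a, haem oxygenase, had 47 UMIs against 1 in multi-marker barcodes and 9.73 against 72.5 CPM, the other direction, in collagen I barcodes. Early response genes were higher in 19 of 26 (median 1.09), with fosab at 38378 against 14213 CPM, and in 9 of 25 without mixed barcodes. Heat shock genes were lower in 6 of 11, with hsp70l at 108 against 511 UMIs (-2.68), and in 9 of 11 without mixed barcodes.

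Levels of the rule's markers between these 2 libraries moved with the mixed barcodes. rgs5b, kcne4, ndufa4l2a and notch3 were higher in wildtype, with log2 ratios of 1.37, 1.40, 1.23 and 1.19, and pdgfrb was at -0.30. Without mixed barcodes the ratios were 0.48, 0.77, -0.08 and 0.17, of which kcne4 alone passed the threshold, and pdgfrb was lower at -1.33 (76 against 49 UMIs). EGFP stood at 1.58 with them and at 0.47 without, the latter not past the threshold. The genes ranked lowest in wildtype came from few uninjured barcodes: the epicardial keratin gene krt15 (44 UMIs in 4), dpt (40 in 3), anxa2a (39 in 5), gstm.3 (74, of which 64 in 1) and the chemokine gene ccl25b (107, of which 103 in 1).

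**Figure D5:**
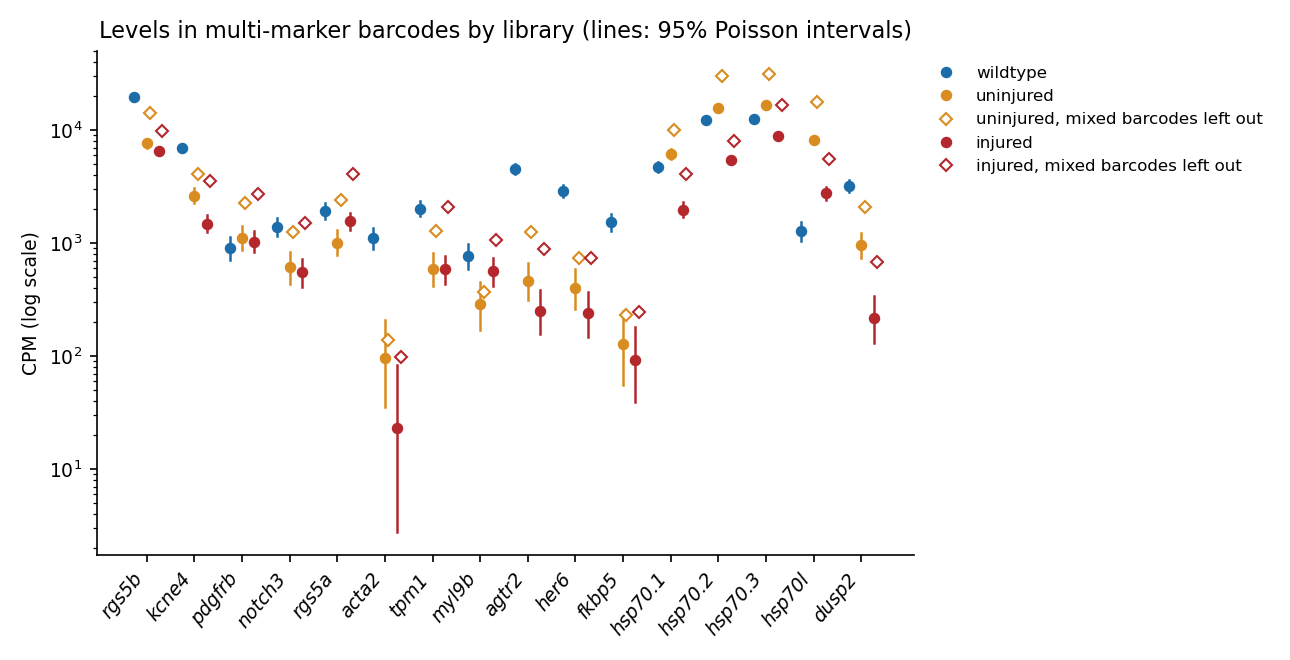
CPM on a log axis of 16 genes in multi-marker barcodes of the wildtype, uninjured and injured libraries, with Poisson intervals; open diamonds leave out mixed barcodes in the uninjured and injured libraries. agtr2, her6 and fkbp5 are highest in wildtype on either count, and the HSP70 genes are lower in injured than in uninjured on either count.

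The pdgfrb mutant library held 14 members, all of them mixed, and 2 multi-marker barcodes, so that a mural population could be described there only by its low number. Leaving out mixed barcodes left 0 of 1119, which at the floor of 3 counts allows a share of up to 0.268%. In the wildtype library, the other side of this comparison, the same condition left 88 of 949. The 14 members had rgs5b in each, with 377 UMIs, but kcne4 in 3 (8 UMIs), notch3 in 6 (11 UMIs), pdgfrb in 1 (3 UMIs) and ndufa4l2a in none, where the 94 wildtype members had kcne4 in 81, notch3 in 49, pdgfrb in 44 and ndufa4l2a in 40. EGFP was found in 9 of 14 and 90 of 94. Of 971 genes 226 were higher in mutant (23.3%) and 311 lower (32%), with a median of -0.37 over all genes.

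The lowest genes in the mutant members were those that marked the wildtype multi-marker barcodes. agtr2 had 4 UMIs against 457 (log2 ratio -5.71), atp1a1b 0 against 139, the signal regulator rasl12 0 against 133 and slc20a1a 0 against 124. All 5 measured members of the vasoactive list, 5 of 6 other pericyte genes and 8 of 10 contractile genes were lower, where 32% of all 971 genes were. A gene could be measured through its wildtype UMIs alone, which favours genes high there, so nothing is read from these counts. The other 2 contractile genes were higher, tpm4a with 49 of 60 and mgp with 30 of 30 UMIs in 1 barcode. Ribosomal protein genes were higher in 77 of 79 (median 1.44) and cardiomyocyte genes in 8 of 10 (median 1.44), where 23.3% of all genes were. The part of these genes in the differences was not tested. Epicardial genes were higher in 4 of 6 with a median of 3.33, led by krt15 at 170 UMIs in 11 barcodes against 10 in 3 (5.22) and krt91 at 177 against 25 (3.95). cxcl12a, the paralogue of cxcl12b, had 183 UMIs in 11 barcodes against 56 in 13 (2.84). zgc:153704, rbp2a, g0s2 and zgc:92429 ranked highest, with 139, 99, 92 and 48 of their UMIs in 1 barcode each. The number of mural cells in the tissue, their yield in the sort and their RNA content cannot be told apart in these counts.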

How the data were processed

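The deposited files hold UMI counts per gene and barcode that, per the file headers, the authors made in Cell Ranger 4.0.0. Per the labels' protocols, the libraries were 10x Genomics 3' ones of chemistry v3.1. GRCz11 and Seurat are named without a role in the submitters' processing notes. The deposited counts were used unscaled, and 25110 features were summed to 24438 symbols. The members and all 24 gene lists (446 of 463 symbols found) were chosen with earlier results of these data known.

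UMIs were summed per library and class and scaled to the class's total (CPM). Ratios have a conditional binomial interval, shares a Clopper-Pearson one and CPM a Poisson one, all at 95%. UMIs amplified from the same cell share its sampling, so these cover counting error only. A count of 0 was set to a floor of 3 UMIs over the class, which makes the ratio a bound. Between libraries, genes with at least 20 UMIs were measured and called beyond 1.5-fold with an interval excluding 1. Against other barcodes the fold was 2. A gene was measured there with at least 50 UMIs over the members of the class, or at least 50 in the other barcodes of each library. Only the ranking of the highest genes also asked for 5 member UMIs in each library. This describes libraries, not conditions. Named genes were the markers, the reporters, cxcl12b, up to 6 members per list by UMIs, the 20 highest and 5 lowest genes against other barcodes, and the 5 highest and lowest per library comparison. The genes of the wildtype split, those named as absent, and others beyond these were chosen after their values were seen.

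The calls were tested on simulated Poisson counts with 200 changed genes. The simulated sums held no variation between barcodes, which the data have, so the rates cover counting error only and are not rates for the data. For injured against uninjured multi-marker barcodes (783 genes) 62% of 2-fold and 96% of 4-fold changes were called, and 2.72% of unchanged genes, and over all members (3996 genes) 57%, 97% and 3.21%. For wildtype against uninjured multi-marker barcodes (848 genes) these were 65%, 98% and 3.21%, over all members (3196 genes) 36%, 71% and 2.66%, and for mutant against wildtype members (991 genes) 59%, 92% and 2.75%. The alternatives were other marker minima, no collagen condition, thinning, TMM scaling (edgeR 4.0.16), scaling without mitochondrial, ribosomal protein and haemoglobin genes, other UMI minima, and leaving out mixed barcodes or each gene's top barcode. Python 3.11.15, numpy 2.4.6, pandas 2.3.3 and scipy 1.17.1 were used.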

Additional observations from a re-analysis of the deposited data

Results flagged for a closer look

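Barcodes with at least 3% of their UMIs from myl7 were left out of all comparisons, and some carried the mural markers. In the injured library 7 of 622 such barcodes (1.13%) had at least 5 marker UMIs and more of these than of collagen I, which is above the 5 of 1049 (0.477%) of the uninjured library. In wildtype they were 6 of 672 (0.893%) and in mutant 4 of 891 (0.449%). With 1 library per group the difference was not tested.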

How the results depend on the processing

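No paired analysis was possible because each group is 1 library. Of the shares, counts and contractile levels recomputed, 87 values stayed close to those reported and 62 moved, and of values of single genes 524 of 572 kept their direction and call. The cause was not tested in any case. Shares of kept barcodes moved as follows. With at least 3 markers detected they were 7.80% in wildtype, 0.179% in mutant, 1.09% in uninjured and 1.65% in injured, and without mixed barcodes 0 in mutant, 0.796% in uninjured and 1.08% in injured. With 3 marker UMIs the uninjured share was 7.51%, and with 10 it was 4.18% and the injured share 3.37%. Without the collagen condition they were 8.06% and 10.8%, at 2 marker UMIs and full depth 8.86% and 6.17%, and thinned 3.68% in uninjured.

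For injured against uninjured, genes higher and lower over all members numbered 474 and 534 with TMM scaling, 581 and 365 when scaled without mitochondrial, ribosomal protein and haemoglobin genes, and 126 and 91 without mixed barcodes, and 522 were higher at a minimum of 50 UMIs. In multi-marker barcodes 38 were higher at 50 UMIs, and 31 higher and 29 lower without mixed barcodes. For wildtype against uninjured the members gave 504 and 752 with TMM scaling, 510 and 664 with the other scaling, 115 and 109 without mixed barcodes, and 450 higher at 50 UMIs. Multi-marker barcodes gave 148, 150 and 149 higher with TMM, the other scaling and 50 UMIs, and 92 higher and 91 lower without mixed barcodes. For mutant against wildtype 179 were lower at 50 UMIs.

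Against other barcodes, genes higher over all members numbered 91 without mixed barcodes and 79 with 3 markers, and genes lower 41 against collagen I barcodes alone, 10 with TMM, 28 with 10 marker UMIs and 50 without mixed barcodes. For multi-marker barcodes 128 were higher at 20 UMIs, and 33 lower with TMM and 109 without mixed barcodes. Some genes over all members changed sign in the log2 value nearest to 0 of the 3 libraries. Without mixed barcodes si:ch211-106h4.12 was at -3.45, ccl25b at -4.24, cahz at 0.0338, ttn.2 at 2.21, ttn.1 at 2.84 and mibp at 1.26. With 3 markers si:ch211-106h4.12 was at -2.93, ccl25b at -2.40 and mibp at 0.0594, and against collagen I barcodes ccl25b was at -0.33, prx at -0.0799, ttn.2 at 4.74 and ttn.1 at 3.20.

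The contractile list over all members was at 6341 CPM in wildtype, 3025 in mutant, 1221 in uninjured and 2232 in injured. In the same order it was 7780, 2484, 3323 and 3879 CPM with 3 markers and 6881, 4776, 863 and 3059 CPM in barcodes with no collagen I UMI. Without mixed barcodes it was 7536 in wildtype, 4200.4 in uninjured and 8896 CPM in injured. With 10 marker UMIs it was 1169 in mutant and 1320.1 CPM in uninjured, and thinned 1785 in uninjured and 3969.7 CPM in injured. Members numbered 14 in mutant, and 14 unmixed multi-marker barcodes each in uninjured and injured, which limits every value there.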
